A study of Homo sapiens with 36 samples.

Results

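EA.hy926 cells that had been kept in 100 nM perfluorooctanoic acid (PFOA) for 12 weeks were compared with cells kept in the same dose for 6 weeks. The members are the 3 libraries of each of these groups, 6 of the 36 libraries in all, taken by the dose and time in their labels. EA.hy926 is a human line made by fusing umbilical vein endothelial cells with A549 lung carcinoma cells, so it is a dividing hybrid and not a primary endothelium. PFOA is a persistent surfactant that was used to make fluoropolymers and that binds fatty acid carrier proteins. The groups used here are wild-type cells at 100 nM, 10 nM and 1 nM PFOA and vehicle cells without PFOA, each at 12 and at 6 weeks. All of these groups, exposed and vehicle alike, had 0.05% DMSO, with 3 biological replicates a group. All of them were grown in serum-containing medium with hypoxanthine, aminopterin and thymidine, were split when nearly confluent and were collected at a split. The rest of the study exposed cells for 48 h to 1, 10 or 100 µM and is not used here. Weeks of exposure, weeks in culture and the harvest differ together between 12 and 6 weeks, so they cannot be told apart within the 100 nM cells. The vehicle cells, which share no library with the 100 nM cells, carry the same weeks in culture without PFOA. Whether they were harvested together with the 100 nM cells is not given in the labels.

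Several systems that such a comparison can show are well described. Cells that sense little sterol release the SREBP transcription factors, which turn on the genes of cholesterol synthesis and sterol uptake, and sterol excess shuts this off. A shortage of amino acids or stress in the endoplasmic reticulum raises translation of ATF4, a transcription factor that turns on amino acid synthesis, amino acid transport and tRNA charging. Dividing cells express the genes of DNA replication in S phase through E2F factors and those of mitosis in G2 through the MuvB complex, and repress both when they leave the cycle.

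The 24 libraries of 6 and 12 weeks held 17815292 to 19407559 reads each, with a read in 14192 to 15050 genes. Values below are normalised read counts, that is, reads divided by 1 size factor per library, and they are comparable between libraries for a gene but not between genes. Ribosomal protein transcripts took 10.9% to 18.8% of the normalised counts of 100 nM libraries at 12 weeks, against 11.5% to 16.03% of those at 6 weeks. The share of mitochondrially encoded transcripts was 5.58% to 10.3% at 12 weeks, against 6.27% to 9.70% at 6 weeks. Both shares overlapped. The first principal component of the 24 libraries held 61.97% of their variance. On it 100 nM libraries scored -69.5 to 17.9 at 12 weeks, against -60.1 to -10.5 at 6 weeks. Vehicle libraries scored -18.7 to 115 at 12 weeks, against 16.3 to 109 at 6 weeks. Their ribosomal share was 16.2% to 21.3% at 12 weeks, against 17.03% to 19.3% at 6 weeks. At 6 weeks the 100 nM and vehicle libraries overlapped neither on the component nor in the ribosomal share. A gene's difference between the arms at 6 weeks therefore cannot be told apart from a difference of whole libraries. Among the 100 nM libraries, replicate 3 at 12 weeks and replicate 3 at 6 weeks stood apart from the others of their groups in the ribosomal share, in opposite directions. Of 11 endothelial markers, 9 had a mean of at least 10, with a sum of 23547 to 38555 at 12 weeks, against 25730 to 33455 at 6 weeks,, CLDN5 was at 0 in all 6 libraries and KDR did not exceed 3.84. The keratins KRT7, KRT8 and KRT18 were also expressed, while the epithelial cadherin CDH1 was at 0. Of the other epithelial markers, EPCAM did not exceed 17.5 and KRT19 did not exceed 5.82 in the 100 nM libraries. The fibroblast marker sum was 445 to 738 at 12 weeks, against 697 to 830 at 6 weeks, and of these markers only THY1 had a mean of at least 10. The leukocyte marker sum was 25.1 to 38.1 at 12 weeks, against 22.5 to 34.3 at 6 weeks.

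At 12 weeks the 100 nM cells had lower transcript levels of genes of cholesterol synthesis and of the cell cycle, and higher levels of genes of the ATF4 response, than at 6 weeks. Of 12196 genes with a mean of at least 10 over the 6 libraries, 298 (2.44%) were higher at 12 weeks and 288 (2.36%) were lower, 586 genes or 4.80% of those tested. The test was limma on log2(normalised count + 1) with a Benjamini-Hochberg adjusted p under 0.05, and all fold changes below are on that scale, where genes with few reads appear to change less than they did. The median standard error of a gene's log2 change was 0.42, and the median size of the change over all genes was 0.35. In 2947 genes (24.2%) the 3 libraries at 12 weeks did not overlap the 3 at 6 weeks, and in vehicle cells this held for 1576 genes (12.9%). At both times vehicle libraries spread more widely on the first principal component than 100 nM libraries. These shares therefore do not compare the size of the change between the arms. Leaving out a library changed the counts of passing genes. They were 173 higher and 164 lower without replicate 2 at 12 weeks, 161 and 132 without replicate 1 at 6 weeks, 162 and 124 without replicate 2 at 6 weeks, and 193 and 156 without replicate 3 at 6 weeks.

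The vehicle cells changed as well over the same weeks. In them 444 genes passed (3.64%), 229 of them higher and 215 lower at 12 weeks, against 585 (4.80%) at 10 nM and 584 (4.79%) at 1 nM. The shares higher and lower were 1.88% and 1.76% in vehicle, 2.46% and 2.34% at 10 nM, and 2.87% and 1.92% at 1 nM. The 100 nM and vehicle changes shared 325 passing genes, all in the same direction, which is 55.5% of the genes passing at 100 nM and 73.2% of those passing in vehicle. Of the 586 genes passing at 100 nM, 582 (99.3%) had a vehicle change of the same sign. Over those 586 genes the median size of the change was 1.44 at 100 nM and 1.20 in vehicle, and over the 444 genes passing in vehicle it was 1.35 at 100 nM and 1.48 in vehicle, so each set was larger in the cells that chose it. Across all 12196 genes, which share library depth within an arm and are not independent, the changes at 100 nM and in vehicle had a Pearson r of 0.76. Among the higher genes at 100 nM, 128 of 298 passed in the same direction in all 4 arms and 60 at 100 nM alone. Among the lower genes, 112 of 288 passed in all 4 arms and 78 at 100 nM alone.

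**Figure D1:**
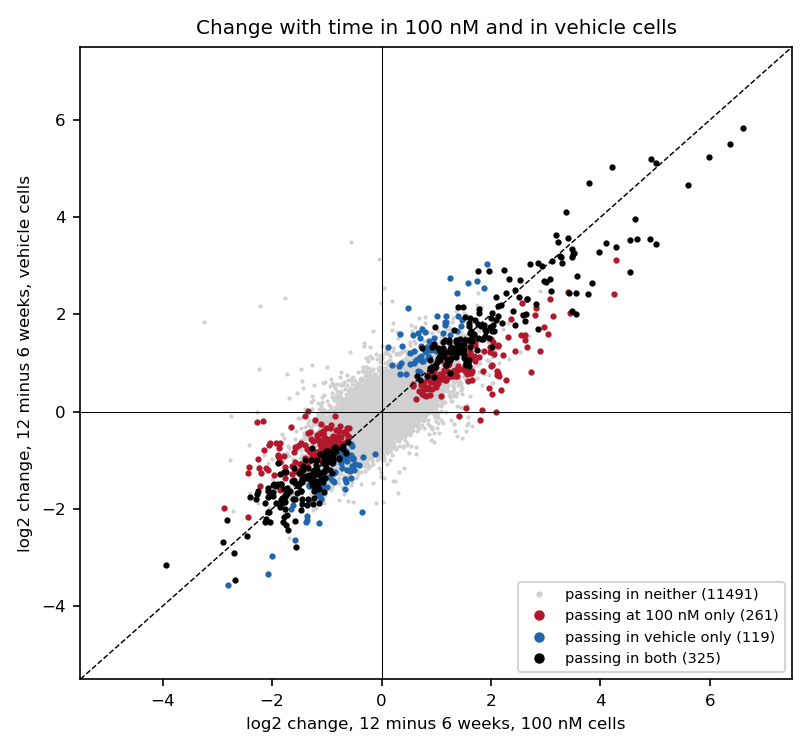
Log2 change between 12 and 6 weeks of each of 12196 genes in 100 nM cells (horizontal) and in vehicle cells (vertical), coloured by whether the gene passed at an adjusted p under 0.05, with the line of equal change dashed. The 325 genes that passed in both lie at the upper right and the lower left.

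Whether the change differed between 100 nM and vehicle was tested directly as the difference of the changes. No gene passed (0%), and the smallest limma adjusted p was 0.99967. Of the 12196 tested genes 79 had an unadjusted p under 0.05. That is a smaller share than the 0.05 that would fall there on average if no gene differed, so these 79 are no set of near calls. The edgeR quasi-likelihood test on recovered reads called 0 genes with 77 at an unadjusted p under 0.05. DESeq2 called 1 gene with 99 at that p, the readthrough gene TVP23C-CDRT4, whose reads cannot be assigned with certainty. The precision was limited: the median standard error of a difference was 0.59, and the median 95% interval reached 1.23 log2 units to either side. A missing call therefore does not show that a gene changed alike in both arms.

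**Figure D2:**
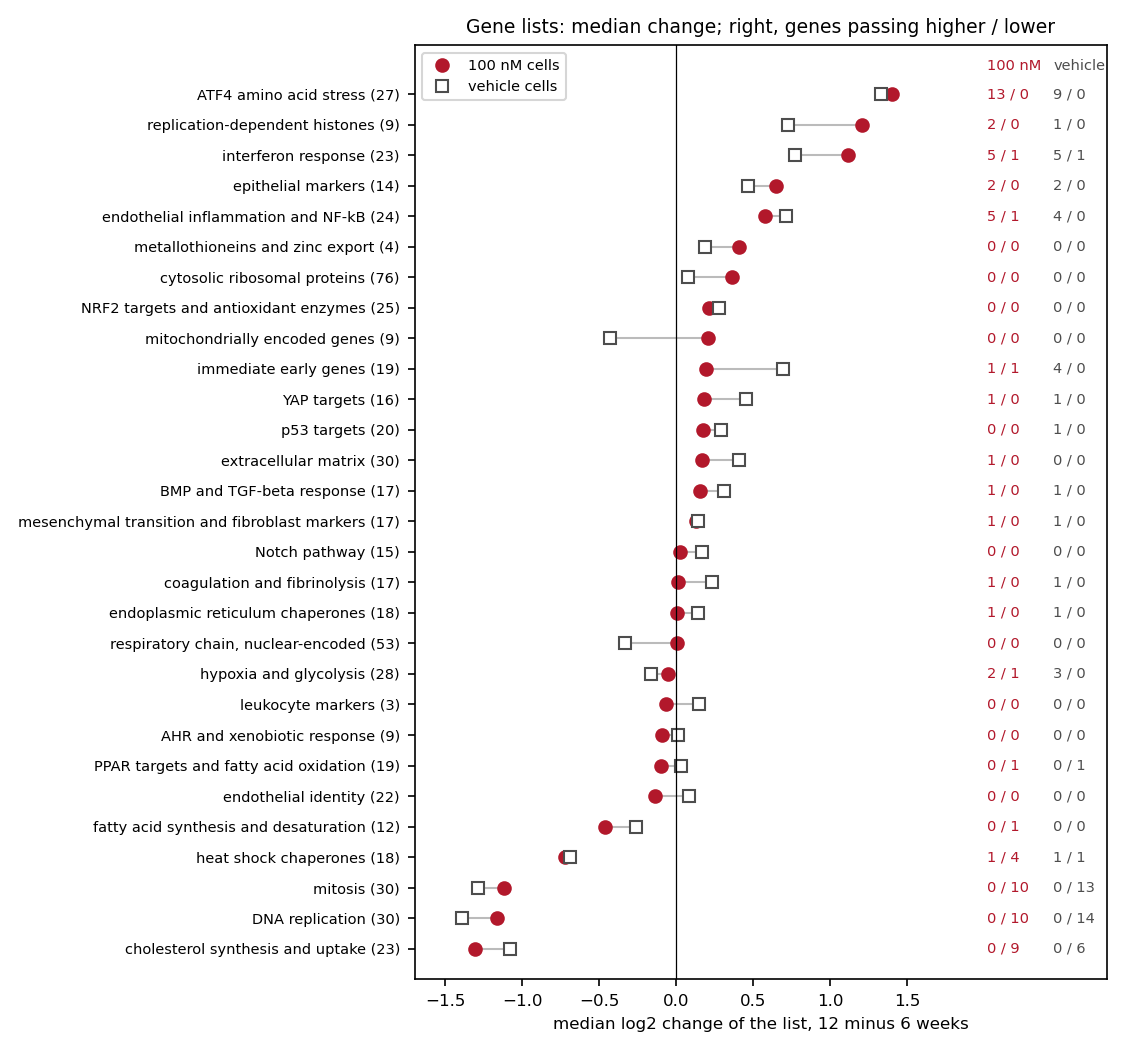
Median log2 change between 12 and 6 weeks of each of 29 gene lists, with the number of tested genes in brackets, in 100 nM cells (filled circles) and vehicle cells (open squares). The numbers at the right count the genes that passed higher or lower. Both arms have their highest median in the ATF4 list, 1.40 at 100 nM and 1.33 in vehicle, and medians under -1 in mitosis, DNA replication and cholesterol genes.

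Cholesterol synthesis was the list with the lowest median. Of its 23 tested genes 9 fell and none rose, against 2.36% of all tested genes lower, 22 had a change below 0, and the median change was -1.30 against 0.01 over all genes. In vehicle cells 6 fell, with a median of -1.08, and 5 fell in both. At 10 nM 9 fell and at 1 nM 4. The count at 100 nM was 4 without replicate 2 at 12 weeks.

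DHCR7 (chr11:71427287-71449043, GRCh38.p14, as are all positions below) reduces the last ring double bond on a route to cholesterol. It had 544, 440.5 and 384 counts in 100 nM cells at 12 weeks, against 1704, 2029 and 1646 at 6 weeks. In vehicle cells it had 563, 1061 and 554 counts at 12 weeks, against 3336, 1764 and 2045 at 6 weeks. The times lay apart in both arms. At 12 weeks every 100 nM library lay below every vehicle library, while at 6 weeks the arms overlapped. The log2 change was -1.98 ± 0.35 (SE, adjusted p = 0.00149, limma) at 100 nM and -1.73 in vehicle, a difference of -0.25 with a 95% interval of -1.28 to 0.77.

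INSIG1 (chr7:155297878-155310235) holds the SREBP escort protein in the endoplasmic reticulum and is itself an SREBP target. It had 413, 368 and 622 counts at 12 weeks, against 2432, 2327 and 1811 at 6 weeks in 100 nM cells. Vehicle cells had 399.7, 269 and 511 counts at 12 weeks, against 1007, 1198 and 1370.0 at 6 weeks. At 6 weeks all 100 nM libraries lay above all vehicle libraries, while at 12 weeks the arms overlapped. On the first principal component the 6-week arms lay apart as well. The change was -2.25 ± 0.33 (limma adjusted p = 0.000281) at 100 nM and -1.63 in vehicle, and the interval of the difference, -1.60 to 0.37, includes 0.

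HMGCS1 acts at an early step of the mevalonate pathway. HMGCS1 had 115, 79.1 and 228 counts at 12 weeks, against 731, 634 and 459 at 6 weeks in 100 nM cells. Its change of -2.22 ± 0.63 passed narrowly (limma adjusted p = 0.0459) and no longer passed in 10 of 20 alternatives, among them the removal of any 1 of the 6 libraries but replicate 3 at 12 weeks, with adjusted p-values up to 0.22. The later enzymes IDI1, FDFT1 and MSMO1 fell by 1.61, 1.50 and 1.75 on the log2 scale. SREBF2, which encodes the factor itself, had a change of -1.07 that did not pass, and PMVK, which phosphorylates phosphomevalonate, had the only change above 0, at 0.55.

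In the upstream 250 bases that RefSeq (GRCh38.p14) gives for 18 of these 23 genes, the box CCAAT, bound by NF-Y, a factor that SREBP often works with, stood on either strand in 16 (88.9%). It stood in 42.0% of the 9960 tested genes with such a sequence. The sterol element TCACNCCAC stood in 1 (5.56%) against 1.16% of all. The stretch of HMGCS1 with its 2 CCAAT boxes, read as ATTGG, is shown 5′ to 3′ at chr5:43313498-43313597 on the minus strand, with the boxes in capitals.
HMGCS1: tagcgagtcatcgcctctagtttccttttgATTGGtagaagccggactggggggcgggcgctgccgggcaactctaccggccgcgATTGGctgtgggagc

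Among genes of fatty acid metabolism, SCD, the desaturase that makes oleate and another SREBP target, had 663, 405 and 1049.9 counts at 12 weeks, against 4231, 3847 and 2725 at 6 weeks at 100 nM. Vehicle cells had 778, 819 and 1289 counts at 12 weeks, against 2119, 1772 and 3082 at 6 weeks. The groups did not overlap in either arm, but SCD passed at 100 nM (-2.43 ± 0.38, limma adjusted p = 0.000532) and not in vehicle (-1.27), and its difference from vehicle was -1.16 with an unadjusted interval of -2.29 to -0.025. It was the only one of 12 tested genes of fatty acid synthesis that passed. Of 19 PPAR targets and genes of fatty acid oxidation, the pathway PFOA is best known for in rodent liver, only FABP4, a fatty acid carrier, passed. FABP4 had 29.6, 33.1 and 31.3 counts at 12 weeks, against 102, 105 and 121 at 6 weeks at 100 nM, and fell by 1.77 at 100 nM and by 1.99 in vehicle.

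The ATF4 list moved the other way. Of 27 tested genes 13 rose and none fell, against 2.44% of all tested genes higher, all 27 had a change above 0, and the median was 1.40. In vehicle cells 9 rose, with a median of 1.33, and 8 rose in both. At 10 nM 11 rose and at 1 nM 15. Without any 1 of the 6 libraries at 100 nM the count stayed between 10 and 11.

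CHAC1 (chr15:40953471-40956512), which degrades glutathione, had the largest contrast with vehicle in this list. It had 2504, 3003 and 1123 counts in 100 nM cells at 12 weeks, against 96.7, 116 and 109 at 6 weeks. In vehicle cells it had 1832, 5443 and 1111 counts at 12 weeks, against 635, 640.0 and 175 at 6 weeks. The 12-week libraries of both arms overlapped, and every 100 nM library at 6 weeks lay below every vehicle library at 6 weeks. These 6-week libraries also lay apart by arm on the first principal component. The change was 4.24 ± 0.70 (limma adjusted p = 0.000813) at 100 nM and 2.42 in vehicle, where it did not pass, and the difference of 1.81 had an interval of -0.25 to 3.88.

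TRIB3 (chr20:380760-397559), a pseudokinase that ATF4 induces and that feeds back on it, had the smallest p of the list. It had 14222, 13372 and 10932 counts at 12 weeks, against 2272, 2426 and 2007 at 6 weeks at 100 nM. Vehicle cells had 13626, 18477 and 11772 counts at 12 weeks, against 3163, 2809.7 and 2496 at 6 weeks. The change was 2.52 ± 0.26 (limma adjusted p = 5.91e-06) at 100 nM and 2.35 in vehicle, with a difference of 0.16 and an interval of -0.61 to 0.94. NUPR1, a stress-induced chromatin protein, had 303, 453 and 105 counts at 12 weeks, against 5.37, 7.48 and 16.7 at 6 weeks at 100 nM, a change of 4.63 ± 0.76. Vehicle cells had 539, 974 and 202 counts of it at 12 weeks, against 40.4, 34.0 and 18.2 at 6 weeks.

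Asparagine synthetase, ASNS, had 9900.4, 26140.3 and 10681 counts at 12 weeks, against 3311, 3118 and 3896 at 6 weeks at 100 nM. Replicate 2 at 12 weeks stood highest, and the change was 2.03 ± 0.40. The amino acid carrier subunits SLC3A2 and SLC7A5 rose by 2.62 and 2.01, and the arginine carrier SLC7A1 rose by 1.52. SESN2 and DDIT4, which restrain the growth kinase mTORC1, rose by 2.06 and 2.12. The secreted glycoprotein gene STC2 rose by 1.86. The tRNA ligases SARS1, AARS1 and MARS1 rose by 1.64, 1.30 and 1.10, where AARS1 (limma adjusted p = 0.0478) no longer passed in 11 of 20 alternatives and MARS1, which overlaps DDIT3 in the genome, in 8. SLC7A1 also lost its call in 8. The ATF4 transcript itself changed by 1.00 and did not pass, and neither did DDIT3, which encodes CHOP, at 1.37. XBP1, the factor of the unfolded protein response, was the only one of 18 genes of endoplasmic reticulum chaperones and their control that rose, by 1.51, and the median of that list was 0.00.

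The composite element TGATGNAA, bound by ATF4 with a C/EBP partner, stood upstream on either strand in 4 of the 23 list genes with a sequence (17.4%), namely ASNS, CHAC1, AARS1 and GARS1, against 2.43% of all. The stretches of CHAC1 at chr15:40953232-40953331 on the plus strand and ASNS at chr7:97872409-97872506 on the minus strand are shown 5′ to 3′, since these genes carry the largest contrast and the best-known element, with the match in capitals. In CHAC1 it reads on the opposite strand.
CHAC1: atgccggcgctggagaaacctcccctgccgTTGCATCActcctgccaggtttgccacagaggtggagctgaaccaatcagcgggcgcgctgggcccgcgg
ASNS: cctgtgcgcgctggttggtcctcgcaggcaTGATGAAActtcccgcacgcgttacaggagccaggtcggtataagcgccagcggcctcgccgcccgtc

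**Figure D3:**
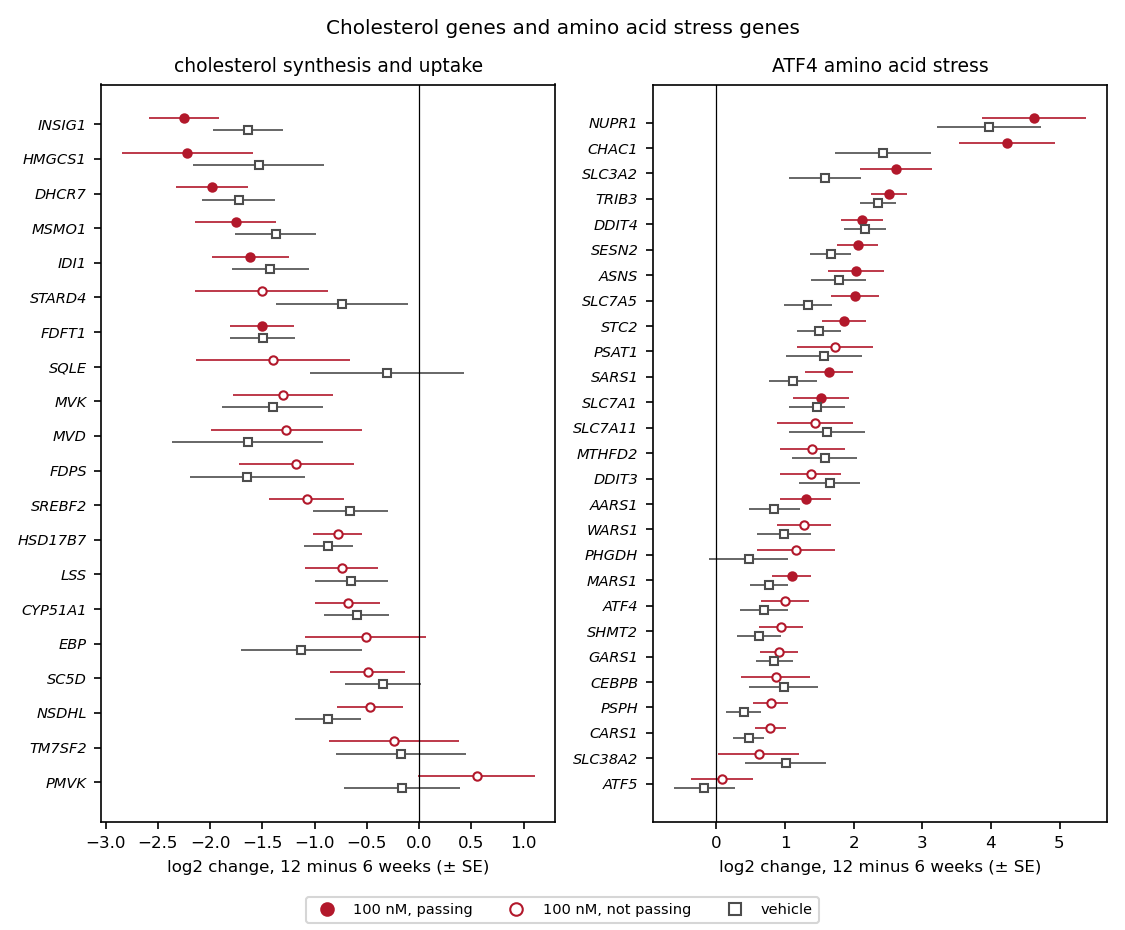
Log2 change between 12 and 6 weeks (± SE, 3 libraries a group) of cholesterol genes (not all members are drawn) and the 27 ATF4 genes in 100 nM cells (circles, filled where the gene passed) and vehicle cells (squares). INSIG1 stands at -2.25 and NUPR1 at 4.63 at 100 nM, and vehicle points lie on the same side of 0 for most genes.

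Genes of the cell cycle fell in every arm. Of 30 tested mitosis genes 10 fell and none rose at 100 nM, against 2.36% of all tested genes lower, with a median of -1.12 and all 30 changes below 0. In vehicle cells 13 fell, with a median of -1.29, at 10 nM 21 and at 1 nM 12. Of 30 tested genes of DNA replication 10 fell and none rose at 100 nM, with a median of -1.16, against 14 and -1.39 in vehicle. The mitosis count was 6 without replicate 1 at 12 weeks. The replication count was 6 without replicate 1 or without replicate 2 at 12 weeks, and 4, 4 and 5 without replicate 1, 2 or 3 at 6 weeks. In bulk RNA, fewer dividing cells and less RNA per cell cannot be told apart.

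MKI67 (chr10:128096659-128126423), which coats mitotic chromosomes and marks cycling cells, had 537, 531 and 799 counts at 12 weeks, against 3019, 2666 and 2154 at 6 weeks in 100 nM cells. Vehicle cells had 578, 739 and 545 counts at 12 weeks, against 2732, 2557 and 2407 at 6 weeks. The arms overlapped at both times, and the changes were -2.08 ± 0.22 (limma adjusted p = 5.99e-06) at 100 nM and -2.06 in vehicle, a difference of -0.03 with an interval of -0.67 to 0.62. CCNB1, the cyclin of mitotic entry, fell by 1.83 at 100 nM and by 1.77 in vehicle. KIF20A, a kinesin of cytokinesis whose gene overlaps CDC23, had 354, 184 and 460.4 counts at 12 weeks, against 2527, 2273 and 1833 at 6 weeks at 100 nM, the largest fall of the list at -2.81 ± 0.36. The mitotic kinase gene AURKA and its activator TPX2 fell by 1.32 and 1.16.

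RRM2 (chr2:10122568-10211010), the regulated subunit of ribonucleotide reductase, had 991, 1633 and 1466 counts at 12 weeks, against 4577, 4304 and 4498 at 6 weeks at 100 nM. In vehicle cells it had 1124, 959 and 972 counts at 12 weeks, against 5182, 5873 and 4306 at 6 weeks. It changed by -1.74 ± 0.22 (limma adjusted p = 5.56e-05) at 100 nM and by -2.32 in vehicle, with an interval of the difference of -0.06 to 1.22. The helicase subunit MCM4 fell by 1.24 at 100 nM and by 1.89 in vehicle, a difference of 0.65 with an unadjusted interval of 0.08 to 1.23. POLE2, a subunit of DNA polymerase epsilon, fell by 1.77, and ORC1, which marks origins and overlaps PRPF38A, fell by 1.79. Both CDKN2C, an inhibitor of CDK4 and CDK6, and SKP2, which directs the inhibitor p27 to degradation, were among the 12 genes with the largest falls. CDKN2C had 55.0, 62.6 and 52.5 counts at 12 weeks, against 292, 274 and 275 at 6 weeks at 100 nM, and SKP2, whose gene overlaps NADK2, had 68.8, 68.5 and 90.8, against 337, 347 and 314.

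The cell cycle element TTTGAA, through which MuvB binds, stood upstream in 12 of 24 mitosis genes with a sequence (50%) against 12.2% of all, and CCAAT in 18 (75%) against 42.0%. The E2F motif TTTCCCGC stood in 7 of 26 replication genes (26.9%) against 2.95%. The 77 bases before the start of MKI67, at chr10:128126424-128126500 on the minus strand, hold TTTGAA at 2 places, in capitals, and the second overlaps a CCAAT box read on the opposite strand.
MKI67: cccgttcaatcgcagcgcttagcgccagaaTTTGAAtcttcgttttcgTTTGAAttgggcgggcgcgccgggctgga

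**Figure D4:**
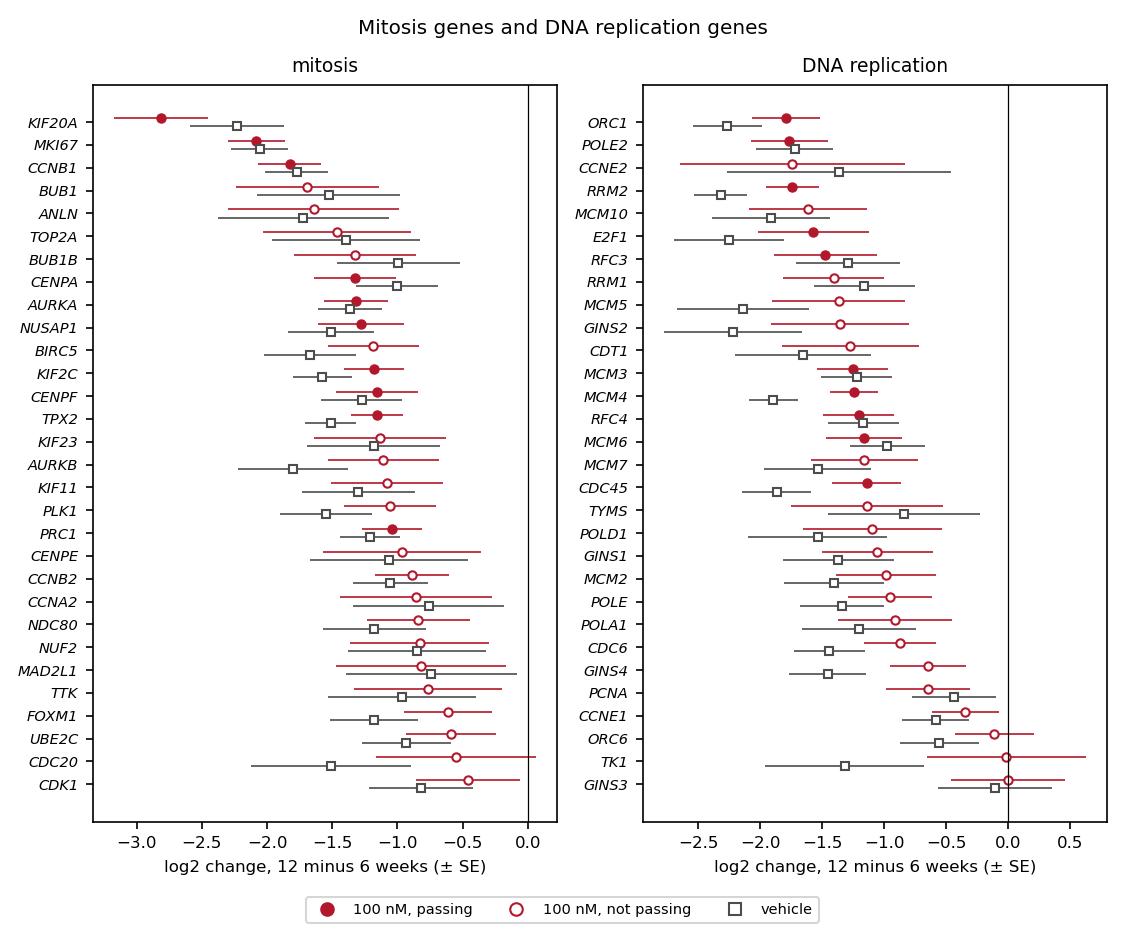
Log2 change between 12 and 6 weeks (± SE, 3 libraries a group) of 30 mitosis genes and 30 DNA replication genes in 100 nM cells (circles, filled where the gene passed) and vehicle cells (squares). KIF20A at -2.81 is lowest among the mitosis genes at 100 nM, and all 30 mitosis genes lie below 0.

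Of 23 interferon response genes 5 rose and 1 fell at 100 nM, against 2.44% and 2.36% of all tested genes, and 5 rose and 1 fell in vehicle, against 1.88% and 1.76%, with medians of 1.12 at 100 nM and 0.77 in vehicle. The number that rose was 3 without replicate 2 at 12 weeks or replicate 2 at 6 weeks, and 2 without replicate 1 at 6 weeks. IFIT3 (chr10:89327997-89340968), an antiviral effector that overlaps LIPA, had 385, 564 and 400.1 counts at 12 weeks, against 146, 161 and 134 at 6 weeks at 100 nM. Vehicle cells had 309.6, 350.1 and 385 counts at 12 weeks, against 165, 163 and 171 at 6 weeks. The change was 1.59 ± 0.19 (limma adjusted p = 3.78e-05) at 100 nM and 1.06 in vehicle, with a difference of 0.54 and an interval of -0.025 to 1.10. The other genes that rose were OASL by 2.90, MX2 by 2.24, OAS2 by 1.17 and IRF9, which carries interferon signals to the nucleus, by 1.12, which no longer passed in 6 of 20 alternatives. USP18, which restrains interferon signalling, fell by 1.84 at 100 nM and by 1.81 in vehicle. The core of the interferon-stimulated response element, GAAA and again GAAA after 2 bases of any kind, stood on either strand upstream in 12 of 16 genes with a sequence (75%) against 3.39% of all. In IFIT3 it stands at 2 places, in capitals and on the opposite strand, at chr10:89327811-89327910 on the plus strand.
IFIT3: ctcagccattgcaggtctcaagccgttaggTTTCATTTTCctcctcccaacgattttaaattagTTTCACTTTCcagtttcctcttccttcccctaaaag

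Among 24 genes of endothelial inflammation and NF-kB, 5 rose and 1 fell at 100 nM, against 2.44% and 2.36% of all tested genes. In vehicle 4 rose, against 1.88% of all. The number that rose at 100 nM was 3 without replicate 1 and 2 without replicate 2 at 12 weeks, and 3, 2 and 3 without replicate 1, 2 or 3 at 6 weeks. The alarmin gene IL1A had 1334, 2687 and 2653 counts at 12 weeks, against 638, 544 and 627 at 6 weeks at 100 nM, a change of 1.82 ± 0.35 against 1.76 in vehicle. The neutrophil attractants CXCL8 and CXCL1 rose by 2.37 and 1.48, the cytokine IL11 by 1.82 and the T cell attractant CCL5 by 1.98. CCL2, which draws monocytes, had 685, 481 and 547 counts at 12 weeks, against 1202, 1305 and 1269 at 6 weeks at 100 nM, and fell by 1.15. CXCL1, CCL5 and CCL2 no longer passed in 7, 9 and 7 of 20 alternatives. Of these genes IL1A and IL11 also passed in vehicle.

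Of 18 heat shock chaperones 4 fell and 1 rose at 100 nM, against 2.36% and 2.44% of all tested genes, with a median of -0.72. In vehicle 1 fell and 1 rose, against 1.76% and 1.88% of all, with a median of -0.69. The number that fell was 2 without replicate 1 and 1 without replicate 2 at 12 weeks, and 1, 1 and 2 without replicate 1, 2 or 3 at 6 weeks. HSPA8, the constitutive cytosolic Hsp70, had 10276, 7743 and 8440.0 counts at 12 weeks, against 25870.3, 28134 and 25927 at 6 weeks at 100 nM, a change of -1.60 ± 0.23 against -1.16 in vehicle. HSPA8 has processed copies that could share its reads. HSPA9, the mitochondrial Hsp70, rose by 1.40.

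Other lists had 1 to 3 passing genes at 100 nM. The glucose carrier SLC2A1 had 2168, 1743 and 1834 counts at 12 weeks, against 516, 544 and 488 at 6 weeks, and rose by 1.88 ± 0.25, against 1.57 in vehicle, while the 28 genes of hypoxia and glycolysis had a median of -0.05. VEGFA rose by 1.13 and the enolase gene ENO2 fell by 1.36, but they no longer passed in 9 and 8 of 20 alternatives, 5 of the 6 single-library removals each among them. The tight junction gene CLDN1 had 988, 881 and 1838 counts at 12 weeks, against 201, 164 and 167 at 6 weeks, and rose by 2.72 ± 0.35, against 3.04 in vehicle. The stress-induced factor ATF3 rose by 1.78 and the nuclear receptor gene NR4A1 fell by 1.85. The receptor kinase gene AXL rose by 1.24, the smooth muscle actin gene ACTA2, which overlaps FAS, by 1.23, and the histone gene H2BC5 by 1.35. The collagenase gene MMP1 rose by 1.10 but no longer passed in 10 of 20 alternatives.

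In 10 lists no gene passed at 100 nM. They were NRF2 targets (25 tested), metallothioneins (4), endothelial identity (22), leukocyte markers (3), p53 targets (20), the Notch pathway (15), the AHR response (9), mitochondrially encoded genes (9), respiratory chain subunits encoded in the nucleus (53) and cytosolic ribosomal proteins (76). Within endothelial identity, the transcription factor gene ERG had 486, 353 and 699.9 counts at 12 weeks, against 1177, 1053 and 733 at 6 weeks at 100 nM, which did not overlap and gave a change of -0.97 that did not pass. The Notch target HES1 had 1320.1, 361 and 1139.9 counts at 12 weeks, against 2262, 2554 and 2281 at 6 weeks at 100 nM. Vehicle cells had 561, 674 and 1346 counts at 12 weeks, against 632, 856 and 1257 at 6 weeks. The change was -1.53 (limma adjusted p = 0.0628) at 100 nM and -0.14 in vehicle, a difference of -1.39 with an unadjusted interval of -2.75 to -0.037 that did not pass. The arms overlapped at 12 weeks. At 6 weeks they lay apart in HES1, as they did on the first principal component. The ribosomal protein median was 0.36 at 100 nM and 0.08 in vehicle, and the 100 nM value ran from 0.014 to 0.92 over 20 alternatives.

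Of the 12 genes with the largest rises at 100 nM, CHAC1 and NUPR1 are given above. DRD5, a dopamine receptor gene that overlaps SLC2A9 and has pseudogene copies, had 173, 123 and 199 counts at 12 weeks, against 0.767, 1.66 and 0 at 6 weeks. Its fitted change of 6.60 depends on the value added before the log, since a library held no read, and it was 5.83 in vehicle. SPRR2A, which encodes a cornified envelope protein, had 132, 244 and 109 counts at 12 weeks, against 1.53, 0 and 4.64 at 6 weeks. SPRR2A and LCE1F, which rose by 3.77, belong to families of near copies whose reads the counting could split.

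DHRS2 (chr14:23630115-23645639), a dehydrogenase of the short-chain family, had 9164, 16553 and 8607 counts at 12 weeks, against 385, 447 and 457 at 6 weeks at 100 nM. In vehicle cells it had 6974, 9581 and 4719 counts at 12 weeks, against 742, 518 and 513 at 6 weeks. The groups lay far apart in both arms, with changes of 4.67 ± 0.38 (limma adjusted p = 4.38e-07) at 100 nM and 3.55 in vehicle, and a difference of 1.12 with an unadjusted interval of 0.0036 to 2.24. SH3BGR had 269, 247 and 204 counts at 12 weeks, against 5.37, 14.1 and 10.2 at 6 weeks at 100 nM, a change of 4.54 ± 0.41 against 3.52 in vehicle. OSCAR, a collagen receptor first known from osteoclasts, had 763, 579.8 and 343 counts at 12 weeks, against 26.9, 30.8 and 33.4 at 6 weeks, a change of 4.10 ± 0.49. The protease gene CTSG rose by 3.97, KCP, a regulator of BMP signalling, by 4.21, GDAP1L1 by 4.28 and the channel gene BEST1, which overlaps FTH1, by 4.91. GDAP1L1 no longer passed without replicate 2 at 12 weeks or without replicate 1 or replicate 2 at 6 weeks.

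Of the 12 genes with the largest falls, INSIG1, HMGCS1, SCD, KIF20A, CDKN2C and SKP2 are given above. FAM111B, a protease gene expressed in cycling cells, had 31.8, 49.6 and 54.0 counts at 12 weeks, against 306, 251 and 315 at 6 weeks at 100 nM, a change of -2.69 ± 0.32 against -2.90 in vehicle. PDE3A, a cyclic nucleotide phosphodiesterase, had 81.5, 81.5 and 135 counts at 12 weeks, against 592, 471 and 372 at 6 weeks, a change of -2.27 ± 0.41 against -1.69 in vehicle. CST1, a salivary cystatin with near copies, fell by 3.93, the centrosomal LRRC45 by 2.46 and LRRC17, which overlaps FBXL13, by 2.20.

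**Figure D5:**
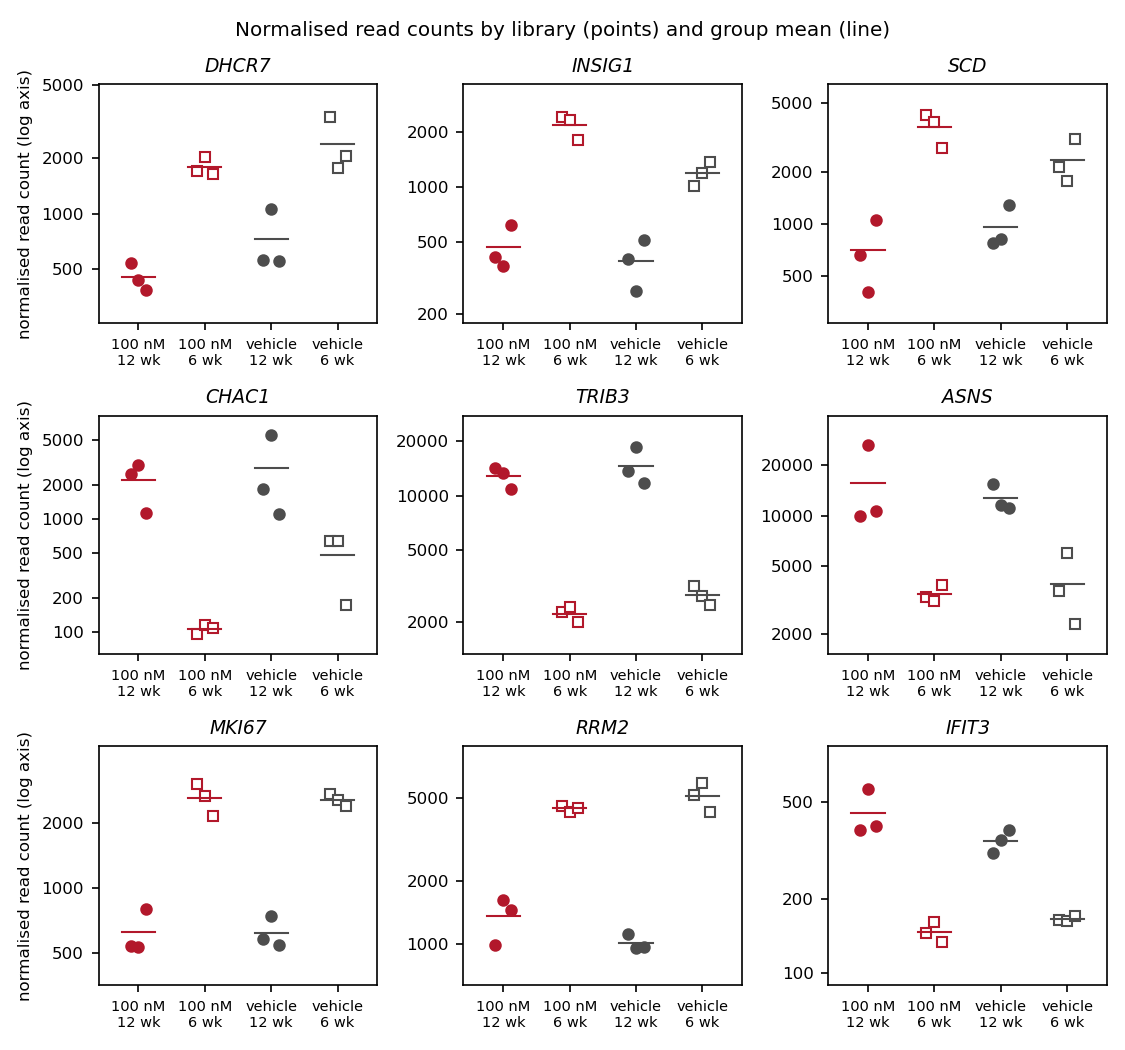
Normalised read counts (log axis) of 9 genes in the 3 libraries of each group, with the group mean as a line, for 100 nM cells at 12 and 6 weeks and vehicle cells at 12 and 6 weeks. In each of the 9 genes the 100 nM libraries at 12 weeks do not overlap those at 6 weeks. CHAC1 at 6 weeks is lower at 100 nM (96.7 to 116) than in vehicle (175 to 640.0), where the arms also lie apart on the first principal component.

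Genes closest to a difference between the arms, none of which passed, were named by their unadjusted p. KRTAP4-9, a keratin-associated protein gene, had 156, 172 and 109 counts at 12 weeks, against 27.6, 45.7 and 48.2 at 6 weeks at 100 nM, and 65.7, 75.9 and 49.8 at 12 weeks, against 59.8, 72.3 and 53.6 at 6 weeks in vehicle. The 100 nM groups did not overlap and the vehicle groups did, and the difference was 1.80 with an unadjusted interval of 0.61 to 2.99. Its relatives KRTAP2-3 and KRTAP4-8 had differences of 1.66 and 1.01. These 3 genes lie within 1 cluster on chromosome 17, where KRTAP4-8 and KRTAP4-9 share sequence. ABCC9, a subunit of ATP-sensitive potassium channels, had 256, 358 and 449 counts at 12 weeks, against 71.4, 69.0 and 96.5 at 6 weeks at 100 nM, and 218, 252 and 162 at 12 weeks, against 129, 142 and 92.0 at 6 weeks in vehicle, a difference of 1.34 with an interval of 0.28 to 2.40. ASRGL1, an asparaginase, had a difference of 0.92, with changes of -0.67 at 100 nM and -1.59 in vehicle.

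Differences below 0 were led by DEPP1, a FOXO target that overlaps RASSF4. It had 76.2, 24.8 and 48.5 counts at 12 weeks, against 173, 214 and 179 at 6 weeks at 100 nM, and 88.0, 119 and 130.0 at 12 weeks, against 225, 99.7 and 237 at 6 weeks in vehicle. Its difference was -1.38 with an interval of -2.48 to -0.28. NHSL2 had 77.3, 57.9 and 73.6 counts at 12 weeks, against 211, 190.4 and 193 at 6 weeks at 100 nM, with changes of -1.51 at 100 nM and -0.68 in vehicle. DMRTA1, ZNF329 and NLRC3, which overlaps CLUAP1, had differences of -1.34, -1.14 and -0.72. The smallest adjusted p of any gene for this difference, 0.99967, applies to all of them.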

How the data were processed

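Messenger RNA was sequenced from 36 EA.hy926 libraries, and the 24 of 6 and 12 weeks were analysed. The authors deposited 1 table per exposure time of signal values, namely read counts divided by a size factor per library. The tools named, without versions, are HISAT, Bowtie2 and DESeq2, and the build is GRCh38.p14, per the submitters' processing notes. How reads were counted, and whether by strand, is not given in the sources used here, so overlapping and antisense genes cannot be told apart. Of 47137 genes listed, 18048 held values, and 1 entry without a gene name was dropped. All values were whole multiples of 1 step per library (100% within 0.01), which recovered whole reads. The log2 ratio of these steps to size factors had an SD of 0.00384 at 6 weeks and 0.00437 at 12 weeks with factors from the 36 libraries together. With factors from 1 table it was 0.00755 and 0.0106. These SDs are within a table and do not see an offset between tables. The mean ratio at 12 weeks minus that at 6 weeks was -0.00216 with factors from the 36 libraries and -0.0966 with factors from 1 table. The deposited values thus lie close to 1 scale computed over all 36 libraries.

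The main fit was limma 3.58.1 (R 4.3.3) with trend on log2(value + 1), with 8 group means over 24 libraries that share 1 spread. Genes with a mean of at least 10 over the 6 libraries at 100 nM were tested (12196), two-sided, with Benjamini-Hochberg adjustment over all of them. With 3 libraries against 3 there are 10 two-sided splits, so an exact permutation test of 1 gene cannot go below 0.1. Replicates are labelled biological. Intervals are 95%, unadjusted, from the t distribution with the fit's degrees of freedom. Named genes were the 12 largest changes in each direction among those passing with no overlap between times, a mean of 50 or more and an official symbol, leaving out LOC, readthrough, antisense and pseudogene entries. For the difference, 5 in each direction by unadjusted p were named under the same other conditions. In each list, passing members and the 3 with the smallest p could be named, and a few others were chosen after their values were seen. Some genes are not reported here, though list counts include them. The 29 lists and the members were chosen with earlier results of these data known. Upstream sequences are the 250 bases before a start in RefSeq. Of 107 such list genes, 3 held overlapping matches of different motifs (IFIH1, MKI67 and OAS3). edgeR 4.0.16 and DESeq2 1.42.0 on recovered reads, and the settings in the closing section, were alternatives.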

Additional observations from a re-analysis of the deposited data

How the results depend on the processing

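The genes that rose and fell at 100 nM numbered 298 and 288. They were 1093 and 1149 with library quality weights, 1650 and 1651 after adding scores on principal component 1 to the fit, 511 and 438 with DESeq2, and 305 and 284 with edgeR. They were 253 and 236 with the replicate number as a block, and 177 and 133 with dose and number together as a flask block. With only the groups compared 182 fell. Without both libraries whose ribosomal share stood apart, a setting chosen after seeing the data, 176 rose and 158 fell. With 1 library left out in turn, 161 to 237 rose and 124 to 231 fell. The passing genes in vehicle, at 10 nM and at 1 nM were 6331, 7376 and 8502 with the weights, 2761, 2696 and 3395 with the component, 708, 1019 and 1061 with DESeq2, 237, 344 and 361 with the flask block and 17, 366 and 17 with only the groups compared. Their leave-out ranges were 272 to 412, 292 to 445 and 321 to 1268. The difference of the changes stayed at 0 in the other alternatives (leave-out range 0 to 0), with 1 gene in DESeq2. The genes with an unadjusted p under 0.05 for it, 79 in the main fit, varied more. They were 2539 with the weights (smallest limma adjusted p 0.0795), 458 with the component and 318 without a filter. They were 215 without vehicle replicate 2 at 12 weeks and 46 without vehicle replicate 3 at 12 weeks. The cause was not tested.

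The labels do not say that a replicate number marks a flask followed through both times, and same-numbered libraries at 12 and 6 weeks did not deviate together in every arm, so the block was kept out of the main fit. For replicates 1, 2 and 3 the correlation of their deviations across genes was -0.51, -0.37 and -0.76 at 100 nM, 0.76, 0.50 and 0.28 at 10 nM, 0.88, 0.30 and 0.60 at 1 nM, and -0.65, -0.77 and 0.76 in vehicle. Of 99 named passing genes, 50 passed in every alternative, 25 lost the call in 1 to 5, 23 in 6 to 10 and 1 in more. The medians of the cholesterol, ATF4, mitosis, replication, interferon, inflammation and heat shock lists kept their sign in all. The hypoxia median, -0.05, ran from -0.077 to 0.18 over the leave-outs and turned to 0.18 without replicate 3 at 12 weeks, 0.01 without replicate 2 at 6 weeks and 0.15 without both ribosomal-share libraries. The median of mitochondrially encoded genes, 0.21, turned to -0.12 under quantile normalization.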

Other observations

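Some gene groups outside the lists were looked at after their values had been seen, so their counts describe these libraries and carry no test of the group. Of 39 keratin-associated protein genes with values 4 were tested (KRTAP2-3, KRTAP4-7, KRTAP4-8 and KRTAP4-9). All 4 rose at 100 nM, against 2.44% of all tested genes higher. Their median change was 1.94 at 100 nM and 0.56 in vehicle. KRTAP2-3 had 2939, 7007 and 2486 counts at 12 weeks, against 879, 975 and 879 at 6 weeks at 100 nM, and 2131, 1578 and 976 at 12 weeks, against 1023, 1819 and 824 at 6 weeks in vehicle. The KRTAP2-3 change was 0.04 at 10 nM and 0.89 at 1 nM, and neither passed. KRTAP4-7 rose by 1.41 at 10 nM, where it passed, and by 1.06 at 1 nM. KRTAP4-8 rose by 1.49 at 1 nM, where it passed, and by 0.59 at 10 nM. In vehicle KRTAP4-7 and KRTAP4-8 changed by 0.75 and 0.84 without passing, and their times did not overlap. KRTAP4-9 passed at neither 10 nM nor 1 nM. These genes lie in 1 cluster, and the KRTAP4 genes among them are near copies, so reads could be shared within the cluster. Of 23 genes of the epidermal SPRR and LCE families with values, 6 were tested and 4 rose, against 2.44% of all tested genes higher. The 6 had a median of 4.16 at 100 nM and 2.64 in vehicle. SPRR2A, SPRR2B, SPRR2D and LCE1E reached the mean of 10 only through the 12-week libraries, with means of 2.06, 0.928, 0 and 9.15 at 6 weeks. Members low at both times were not tested, so this count and median describe the tested genes only and are no support for a rise of the families. SPRR2D was listed at 0 in all 3 libraries at 6 weeks at 100 nM and had 73.0, 156 and 47.8 counts at 12 weeks.

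Of 7 genes of the interleukin-20 family and its receptors with values 4 were tested. The cytokine gene IL24 and the receptor gene IL20RB rose, against 2.44% of all tested genes higher. IL22RA1 (-1.04, limma adjusted p = 0.0568) and IL10RB (0.31) did not pass. IL24 had 435, 1136 and 467 counts at 12 weeks, against 46.8, 49.9 and 57.5 at 6 weeks at 100 nM, a change of 3.56 at 100 nM and 2.44 in vehicle. IL20RB had 130.2, 161 and 136 counts at 12 weeks, against 12.3, 13.3 and 12.1 at 6 weeks at 100 nM, a change of 3.40 at 100 nM and 3.57 in vehicle. The 8 tested class II HLA genes, of 14 with values, all had changes below 0 at 100 nM. Of all 12196 tested genes, 6189 had changes above 0. The HLA median was -0.56 at 100 nM and -0.86 in vehicle. HLA-DMB, a peptide loading factor, was the only one that passed, against 2.36% of all tested genes lower. Of 5 tested guanylate-binding protein genes, GBP5 rose by 1.34 and GBP2 fell by 1.90 at 100 nM, against 2.44% and 2.36% of all tested genes. Their vehicle changes of 0.84 and -0.92 did not pass, though the vehicle times did not overlap in either gene. The differences between the arms, 0.50 and -0.98, had unadjusted intervals of -0.37 to 1.36 and -1.97 to 0.0051, which include 0. GBP2 also passed at 1 nM, with a change of -1.51.

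Of the 586 genes passing at 100 nM, 4 had a vehicle change of the opposite sign, among them ADAM12, RIMKLA and CEACAM20. The metalloprotease gene ADAM12 had 32.8, 43.7 and 39.9 counts at 12 weeks, against 10.7, 9.15 and 11.1 at 6 weeks at 100 nM, and 20.0, 11.1 and 11.1 at 12 weeks, against 8.08, 19.7 and 22.2 at 6 weeks in vehicle. Its change was 1.81 at 100 nM, -0.13 at 10 nM, -0.17 at 1 nM and -0.17 in vehicle, and its difference from vehicle, 1.98 with an unadjusted interval of 0.75 to 3.20, did not pass the adjustment.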
